A study of Mus musculus with 32 samples.

Results

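The genes of fatty acid synthesis and desaturation, 10 in all, were followed in mouse gastrocnemius, the large fast muscle of the calf: Srebf1, Fasn, Acaca, Acacb, Acly, Scd1, Scd2, Elovl6, Thrsp and Me1. They were chosen by gene symbol, and all 10 were found among the 16634 genes of the expression table (Scd2 in an entry that also names the microRNA gene Mir5114). The mutant mice carried Sf1-Cre and 2 floxed Sirt1 alleles (Sf1-Cre; Sirt1loxP/loxP), which deletes the deacetylase SIRT1 in cells that express the nuclear receptor SF1, neurons among them. The control mice carried the floxed alleles and no Cre (Sirt1loxP/loxP), so that an effect of the Cre transgene and one of the deletion cannot be told apart. All mice were 10 weeks old, on a mixed genetic background, and muscle was taken at Zeitgeber times (ZT) 0, 6, 12 and 18 h, counted from lights on, with 4 libraries for each genotype and time, 32 in all. The deletion is not directed at muscle: Sirt1 lay between 4.02 and 6.32 FPKM in mutant muscle and between 4.57 and 6.65 FPKM in control muscle, and these values do not check the genotype labels.

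New fatty acids are built from cytosolic acetyl-CoA. ATP citrate lyase (Acly) makes it from citrate, the acetyl-CoA carboxylases (Acaca, Acacb) turn it into malonyl-CoA, and fatty acid synthase (Fasn) joins these units to palmitate with NADPH, part of which comes from malic enzyme (Me1). Elovl6 lengthens palmitate to stearate, and the stearoyl-CoA desaturases (Scd1, Scd2) put in the first double bond. Srebf1 encodes SREBP-1, the transcription factor that switches the pathway on after feeding, and Thrsp (Spot 14) is a small protein that promotes it. Liver and fat tissue make most fatty acids. In muscle the malonyl-CoA made by Acacb, the carboxylase at the mitochondrial outer membrane, is best known for holding back the entry of fatty acids into mitochondria. Adipoq encodes adiponectin, a hormone made by fat cells, and served here as a sign of fat tissue in each library.

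Promoter sequences are shown for 4 of the genes that varied together over the libraries (Fasn, Acly, Elovl6 and Thrsp) and for Srebf1, which was rhythmic in controls. Each is the 250 bases before a RefSeq gene start (GRCm38.p6), 5′ to 3′ on the strand of the gene. The windows are chr11:120824548-120824797 (minus strand) for Fasn, chr11:100528001-100528250 (minus strand) for Acly, chr3:129532136-129532385 (plus strand) for Elovl6, chr7:97417551-97417800 (minus strand) for Thrsp and chr11:60220628-60220877 (minus strand) for Srebf1, the nearest of its 3 RefSeq starts to the end of its entry in the table. Capitals mark the motifs found on either strand: CCAAT (or ATTGG), the GC box GGGCGG (or CCGCCC) and the nuclear receptor half-site AGGTCA (or TGACCT).
Fasn: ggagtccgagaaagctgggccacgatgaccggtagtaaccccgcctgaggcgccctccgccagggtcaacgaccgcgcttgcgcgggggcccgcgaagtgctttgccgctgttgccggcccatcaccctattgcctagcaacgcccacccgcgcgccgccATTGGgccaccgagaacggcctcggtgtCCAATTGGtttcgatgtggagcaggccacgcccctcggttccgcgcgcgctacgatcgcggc
Acly: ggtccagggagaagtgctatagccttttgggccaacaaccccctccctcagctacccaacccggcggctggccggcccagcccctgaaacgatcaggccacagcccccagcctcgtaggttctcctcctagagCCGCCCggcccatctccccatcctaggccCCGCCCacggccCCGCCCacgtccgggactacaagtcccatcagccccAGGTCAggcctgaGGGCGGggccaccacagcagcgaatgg
Elovl6: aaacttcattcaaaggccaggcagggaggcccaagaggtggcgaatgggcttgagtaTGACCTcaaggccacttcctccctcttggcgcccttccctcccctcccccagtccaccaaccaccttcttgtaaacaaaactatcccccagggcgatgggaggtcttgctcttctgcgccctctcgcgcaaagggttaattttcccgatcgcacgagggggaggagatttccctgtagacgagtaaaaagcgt
Thrsp: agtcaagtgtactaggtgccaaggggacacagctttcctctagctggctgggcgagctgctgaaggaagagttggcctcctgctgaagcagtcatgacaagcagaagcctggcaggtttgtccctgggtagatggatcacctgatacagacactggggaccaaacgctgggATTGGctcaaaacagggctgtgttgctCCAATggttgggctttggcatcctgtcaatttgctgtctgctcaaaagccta
Srebf1: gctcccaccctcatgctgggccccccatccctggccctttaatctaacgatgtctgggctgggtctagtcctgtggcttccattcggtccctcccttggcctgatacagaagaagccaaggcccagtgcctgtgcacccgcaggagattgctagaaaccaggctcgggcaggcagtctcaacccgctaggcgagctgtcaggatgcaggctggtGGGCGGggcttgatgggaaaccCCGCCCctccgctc
The Fasn window holds 3 CCAAT boxes, 2 of which overlap in CCAATTGG at positions -62 to -55 from the start, and the Thrsp window holds 2. The Acly window holds 4 GC boxes and 1 half-site, the Elovl6 window 1 half-site and the printed Srebf1 window 2 GC boxes. The Srebf1 windows not printed, chr11:60222582-60222831 and chr11:60210472-60210721, each hold a CCAAT box, and the latter also holds GC boxes. Among 32544 mouse promoter windows of this length, 33.8% hold a CCAAT box, 33% a GC box and 14% the half-site, so that each of these matches is common. The E-box CACGTG, found in 6.03% of all windows, and the sterol response core TCACNCCAC, found in 1.04%, were not among the letters of any of the 11 windows that RefSeq gives for 8 of the 10 genes. TATAAA, found in 12.3% of all windows, lies only in that of Acacb. None of the motifs overlapped another kind of motif in the 5 windows printed.

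The 10 genes differed widely in level and in how much the libraries varied. Values are FPKM, a read abundance scaled to transcript length and library size, which allows genes to be set side by side per length. Scd1 had the highest median over the 32 libraries, 193 FPKM, and Me1, Thrsp, Acacb, Srebf1 and Fasn followed with medians of 73.8, 53.7, 49.8, 31.4 and 30.4 FPKM. Scd2 had a median of 18.3 FPKM, Acly of 14.4 FPKM, Acaca of 1.90 FPKM and Elovl6 of 1.81 FPKM. Neighbours in this order overlapped in their ranges over the libraries. Acacb was thus the main acetyl-CoA carboxylase transcript, at 41.9 to 64.1 FPKM against 0.872 to 12.5 FPKM for Acaca, and the ranges of this pair did not overlap. No gene of the 10 was listed at 0 in any library, and all 10 passed the filter of at least 1 FPKM in at least 4 libraries that 11975 genes passed.

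Among the 10, 6 genes varied by more than an order of magnitude between libraries. Elovl6 ran from 0.181 to 24.1 FPKM (133-fold), Fasn from 3.79 to 258 FPKM (68.1-fold), Scd1 from 29.8 to 1266 FPKM (42.4-fold), Acly from 4.75 to 159.5 FPKM (33.5-fold), Thrsp from 18.7 to 320.0 FPKM (17.1-fold) and Acaca from 0.872 to 12.5 FPKM (14.3-fold). The other 4 were far steadier: Scd2 ran over 4.88-fold, Srebf1 over 2.39-fold, Me1 over 1.75-fold and Acacb over 1.53-fold. Adipoq itself spanned 7.11 to 85.8 FPKM (12.1-fold). The carboxylases and the desaturases were each divided, with Acaca and Scd1 among the variable genes and Acacb and Scd2 among the steady ones.

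The variable genes rose and fell together from library to library. All 15 pairs among Fasn, Acaca, Acly, Scd1, Elovl6 and Thrsp had Pearson correlations between 0.884 and 0.977 on log2(FPKM + 1) over 32 libraries (Spearman 0.88 to 0.97), and the lowest was still 0.865 when the 2 libraries farthest from the median were left out. Between these genes and Srebf1, Acacb, Scd2 and Me1, the 24 correlations lay between 0.118 and 0.450. Among the steady genes 1 pair stood out, Srebf1 with Scd2, at Pearson 0.76 and Spearman 0.79 (permutation p = 1e-05 and 2e-05, 45 pairs computed; 0.73 without the 2 farthest libraries). Each pair is measured in the same libraries and so shares their makeup and scaling, and differences between genotypes and times are part of these correlations.

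Fasn shows the pattern by library. In mutant muscle it was 8.18, 203, 15.2 and 39.0 FPKM at ZT0, 18.8, 250, 57.5 and 64.3 FPKM at ZT6, 18.8, 174, 5.03 and 258 FPKM at ZT12, and 5.25, 34.4, 89.9 and 189 FPKM at ZT18, in the order of library numbers 0 to 3. In control muscle it was 9.70, 25.1, 26.3 and 34.9 FPKM at ZT0, 16.1, 9.03, 36.2 and 148 FPKM at ZT6, 7.32, 26.5, 87.7 and 50.5 FPKM at ZT12, and 3.79, 68.8, 4.64 and 6.51 FPKM at ZT18. Libraries of 1 group thus lay far apart, and the genotypes overlapped at every time. Scd1, which had the highest levels, was 61.3, 1152, 121 and 192 FPKM at ZT0, 91.1, 1208, 281 and 371 FPKM at ZT6, 386, 892, 29.8 and 1266 FPKM at ZT12, and 71.3, 222, 526 and 834 FPKM at ZT18 in mutant muscle. In control muscle Scd1 was 69.9, 193, 241 and 126 FPKM at ZT0, 94.0, 50.5, 174 and 637 FPKM at ZT6, 49.98, 189, 632 and 208 FPKM at ZT12, and 41.8, 345, 39.3 and 78.0 FPKM at ZT18. The same libraries stood high for both genes: mutant ZT0 library 1, mutant ZT6 library 1, mutant ZT12 libraries 1 and 3, mutant ZT18 library 3 and control ZT6 library 3.

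**Figure D1:**
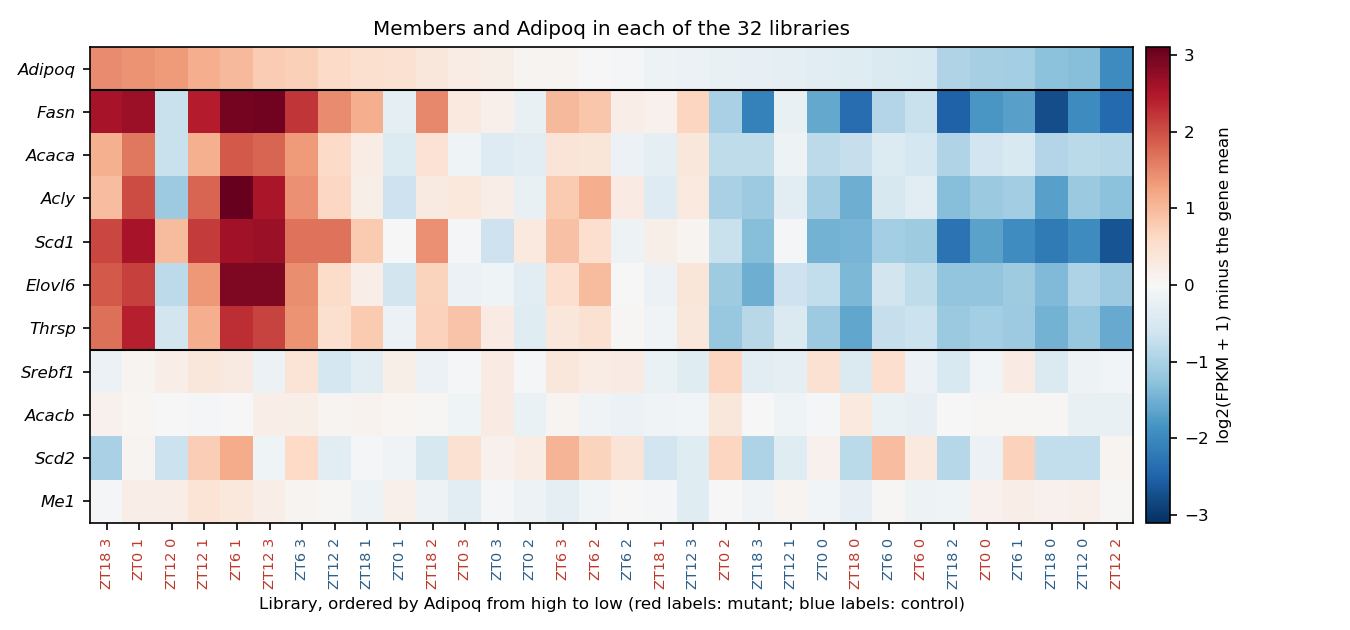
Heat map of log2(FPKM + 1) minus the mean of each gene (colour scale) for Adipoq and the 10 genes (rows) in the 32 libraries (columns, ordered by Adipoq from high to low; red labels are mutant and blue labels control libraries). The rows of Fasn, Acaca, Acly, Scd1, Elovl6 and Thrsp follow Adipoq, the rows of Srebf1, Acacb, Scd2 and Me1 do not, and mutant ZT12 library 0, the column with the third highest Adipoq, is pale or blue in 5 of the 6 following rows.

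The 6 variable genes were higher in libraries with more Adipoq. A slope on log2 Adipoq within the 8 groups was fitted with limma for all genes, and 6 of the 10 genes had a positive slope at an adjusted p under 0.05, where 6.11% of the 11974 genes tested did (7.45% in either direction). None of the 10 had a negative slope past the test, which 1.34% of genes had. Fasn had a slope of 1.73 ± 0.20 (SE) log2 units per log2 unit of Adipoq (adjusted p = 8.1e-07) and Scd1 of 1.70 ± 0.13 (adjusted p = 2.6e-10). Thrsp (1.16 ± 0.15), Elovl6 (1.06 ± 0.18), Acly (1.05 ± 0.17) and Acaca (0.76 ± 0.12) had adjusted p-values between 4.7e-06 and 0.000215. A slope over 1 means that the gene changed by more than Adipoq did, on the log2(FPKM + 1) scale. The interval of the slope lay above 1 for Scd1 (1.44 to 1.96) and Fasn (1.31 to 2.15).

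Srebf1, Acacb, Scd2 and Me1 had slopes between 0.04 and 0.06 that did not pass the test. Their 95% intervals ran from -0.05 to 0.14 for Srebf1, from -0.01 to 0.14 for Acacb, from -0.11 to 0.21 for Scd2 and from -0.04 to 0.13 for Me1, with adjusted p-values between 0.300 and 0.743. The highest bound among these steady genes, 0.21, was below the lowest bound among the variable ones, 0.51 for Acaca. The genes were called steady or variable by their range over these libraries, and a narrow range limits the slope. This gap therefore follows in part from the split and is not separate evidence. With array weights, which count variable libraries less, the slope of Acacb was 0.09 and passed (adjusted p = 0.0246).

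Over the 32 libraries the Pearson correlation with Adipoq was 0.92 for Scd1, 0.84 for Fasn, 0.82 for Thrsp, 0.74 for Elovl6 and Acaca and 0.72 for Acly. The Spearman correlations of these genes were 0.78 to 0.93, and every permutation p was at most 2e-05, where 1e-05 is the smallest that 100000 draws can give (10 relations computed). Within the 16 mutant libraries the correlations of these 6 genes were 0.65 to 0.91, and within the 16 control libraries 0.74 to 0.91. They were 0.73 to 0.91 without mutant ZT12 library 2 and mutant ZT18 library 3, the 2 libraries farthest from the median of Adipoq, and 0.75 to 0.93 after the group means were removed. For Srebf1, Acacb, Scd2 and Me1 the Pearson correlations were 0.13 to 0.34, with permutation p-values of 0.0592 (Acacb) and above. The Spearman correlation of Acacb was 0.40 (permutation p = 0.0226), and those of the other three were 0.12 to 0.20. Without the 2 libraries named above, the Pearson correlation of Acacb was 0.23.

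**Figure D2:**
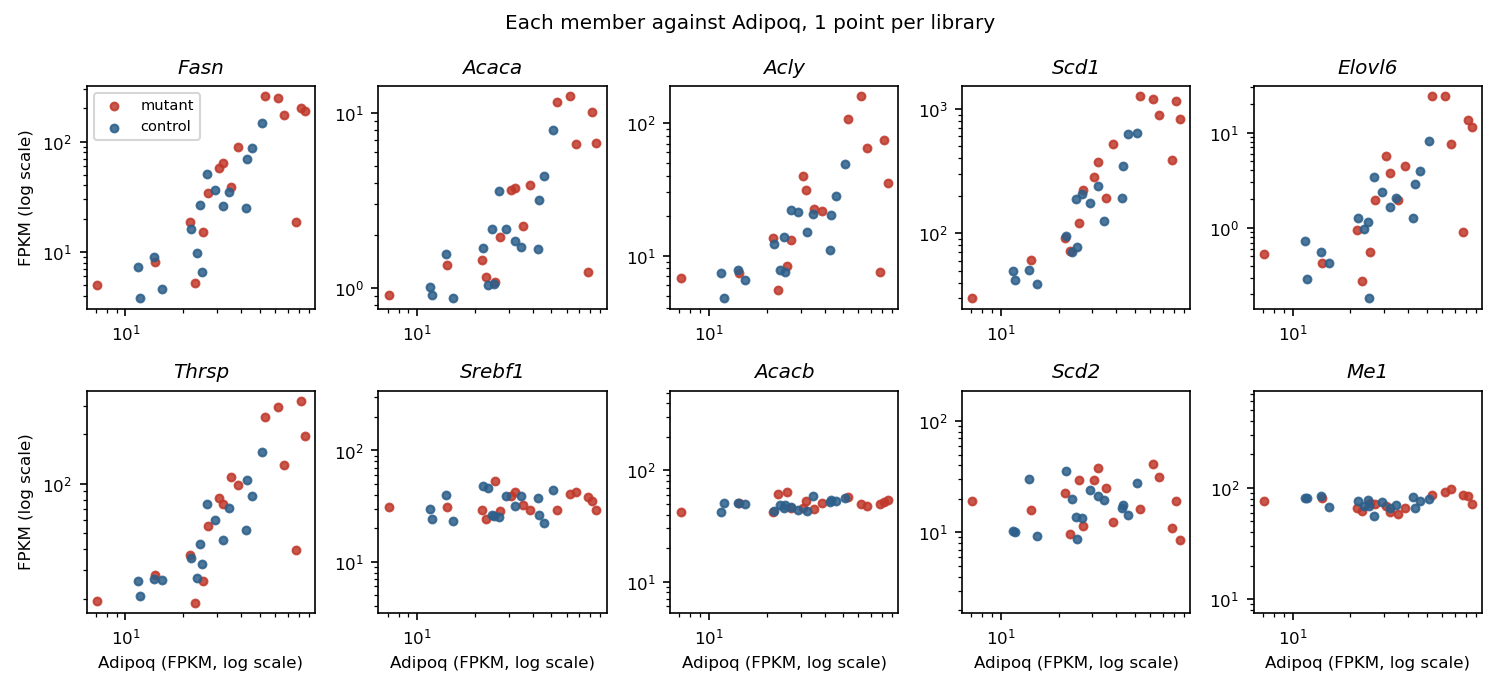
Each of the 10 genes (y axis, FPKM, log scale) against Adipoq (x axis, FPKM, log scale), with 1 point per library, 16 mutant (red) and 16 control (blue). The first 6 panels climb with Adipoq, from 3.79 to 258 FPKM for Fasn, while Srebf1, Acacb, Scd2 and Me1 stay level, and the points of the 2 colours overlap.

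Some libraries departed from the pattern. Mutant ZT12 library 0 had the third highest Adipoq, 77.7 FPKM, and yet 18.8 FPKM of Fasn, 1.23 FPKM of Acaca, 7.57 FPKM of Acly, 0.901 FPKM of Elovl6 and 39.4 FPKM of Thrsp, each below the median of the 32 libraries. Its Scd1 was 386 FPKM, the ninth highest. Mutant ZT12 library 3, with less Adipoq (53.2 FPKM), had 258 FPKM of Fasn and 23.9 FPKM of Elovl6. Libraries with like Adipoq thus differed in these genes.

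Genes of fat cells other than Adipoq moved with it as well. All 15 of the other adipocyte markers tested had a positive slope on Adipoq past the test, and the sum of the 16 markers ranged from 453 to 2917 FPKM in mutant libraries and from 524 to 1684 FPKM in control libraries. No adipocyte marker was below 1 FPKM in every library. Plin1, which coats the lipid droplet of fat cells, correlated with Scd1 at 0.97 and with Fasn at 0.92. Lep, the hormone leptin, correlated less, at 0.72 and 0.61.

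Markers of brown fat ran with the 6 genes too. Ucp1, the uncoupling protein that makes heat in brown fat mitochondria, ranged from 0.651 to 165 FPKM in mutant libraries and from 0.418 to 88.6 FPKM in control libraries. Its Pearson correlation was 0.91 with Fasn and Scd1, 0.88 with Elovl6, 0.86 with Acaca and Thrsp and 0.83 with Acly, and that of Cidea, a lipid droplet protein of brown fat, 0.82 to 0.94 (all permutation p = 1e-05, 50 relations computed over 5 fat genes). For every one of the 6 but Scd1 these values were above that with Adipoq, and for Scd1 Ucp1 gave 0.91 and Adipoq 0.92; differences between the correlations were not tested. In mutant ZT12 library 0, Ucp1 was 18.5 FPKM, against 165 FPKM in mutant ZT12 library 3. Cidea, Ucp1 and Elovl3 (slopes of 2.13, 2.09 and 0.64) were the 3 of 5 brown fat markers that passed the test on Adipoq, and the other two, Cox7a1 and Cox8b, are also abundant in muscle.

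Markers of other cell types were followed in the same fit. All 8 lymphocyte markers had a positive slope on Adipoq past the test, from a summed level of 2.17 to 66.8 FPKM in mutant libraries and 1.62 to 83.8 FPKM in control libraries. With the mean of these markers added to the fit, a choice made after seeing the data, the same 6 genes still passed. Of 9 Schwann cell and myelin markers tested, S100b passed, and of 10 muscle fibre markers Ckm passed, in the negative direction (-0.10 ± 0.03). Acta1, also a muscle fibre marker, was listed at 0 in some libraries of both genotypes and at 17234 to 23915 FPKM in the others. Its slope is therefore not informative, and the cause of the zeros was not tested. None of the macrophage, endothelial or fibroblast markers did. The part of fat or lymphoid tissue in these values was not tested, and in bulk muscle fewer cells of a type and less RNA per cell cannot be told apart.

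The rest of the pathway divided in the same way. There were 25 other genes of fatty acid synthesis, elongation and desaturation that were tested. Of these 11 (44%) had a positive slope on Adipoq past the test, against 6.11% of all genes, and none a negative one. They included Slc25a1, the carrier that exports citrate from mitochondria to Acly (1.14 ± 0.13), Aacs, which makes acetoacetyl-CoA in the cytosol (0.70 ± 0.07), Pgd, a source of NADPH (0.47 ± 0.07), Hacd2, a dehydratase of elongation (0.46 ± 0.05), and Fads3, a desaturase (0.39 ± 0.04), with adjusted p-values between 3.3e-08 and 1.2e-05. The median slope of this list was 0.07, against 0.90 over the 10 genes and -0.0021 over all genes tested.

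Of 13 genes of triglyceride synthesis 5 passed, all positive: Agpat2 (1.31 ± 0.13), Dgat2 (1.03 ± 0.07), Pnpla3 (0.65 ± 0.11), Dgat1 (0.42 ± 0.05) and Mogat1 (0.40 ± 0.05). Dgat1 and Dgat2 make the last step to triglyceride. Of 21 regulators of lipid synthesis 3 passed: Cebpa and Pparg, which direct fat cell development and are also in the list of adipocyte markers, and Insig1, which holds SREBP in the endoplasmic reticulum (0.39 ± 0.07). Of 21 genes of sterol synthesis 4 passed, Acat2, Lss, Nsdhl and Pmvk, with slopes of 0.17 to 0.52. The genes that passed were 38.5% of the triglyceride genes, 14.3% of the regulators and 19.0% of the sterol genes. Among all genes tested, 6.11% had a positive slope past the test. Insig1 was the only regulator to pass that is not also in the list of adipocyte markers.

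The genes whose levels were most like those of the 10, by Pearson correlation over the 32 libraries, fell into the same classes. Tkt, the transketolase of the pentose phosphate pathway (in an entry that also names Mir3076), was among the 3 most like genes of all 6 variable genes, at 0.94 to 0.98. Pygl, a glycogen phosphorylase, was among those of Fasn, Acaca, Acly, Elovl6 and Thrsp (0.95 to 0.97), and Slc25a1 among those of Fasn, Acly, Elovl6 and Thrsp (0.95 to 0.97). Plin1 was the most like Scd1 (0.97), and Klhdc7a followed Tkt there (0.96). Plin2, a lipid droplet coat, was the third for Acaca (0.95). The steady genes had other neighbours: Unc119b, Zfp395 and Nfatc3 for Srebf1 (0.76 to 0.78), Arhgap24 and Edem3 for Scd2 (0.83), Pnpla2 and Tns1 for Acacb (0.67 to 0.68), and Gtf2a2, Nkain1 and Slc25a51 for Me1 (0.69 to 0.74).

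The main comparison of the design asks whether muscle differs between mutants and controls. Over all times, none of the 10 genes passed limma's test at an adjusted p under 0.05, and none had an unadjusted p under 0.05. Among all 11975 genes 0.0251% passed and 776 had an unadjusted p under 0.05. All 10 had a higher mean log2 level in mutants, with a median difference of 0.59, against 0.0023 over all genes tested. A higher mean was found for 6142 of the 11975 genes. The 6 variable genes correlated with each other at 0.884 to 0.977, so that the 10 signs are not independent. The difference was 1.07 ± 0.54 (SE) for Scd1, 1.06 ± 0.60 for Fasn, 0.82 ± 0.42 for Elovl6, 0.77 ± 0.41 for Acly, 0.66 ± 0.41 for Thrsp and 0.52 ± 0.29 for Acaca (adjusted p between 0.756 and 0.762). For Scd2 it was 0.17 ± 0.12, for Srebf1 0.08 ± 0.07, for Acacb 0.04 ± 0.06 and for Me1 0.02 ± 0.06 (adjusted p between 0.772 and 0.957).

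The spread between libraries was as large as these differences. The interval for Scd1 ran from -0.04 to 2.17 and that for Fasn from -0.17 to 2.28, so that these data do not separate no difference from a large one. Fasn had a median of 48.3 FPKM (5.03 to 258) in the 16 mutant libraries and 25.7 FPKM (3.79 to 148) in the 16 control libraries. The median of Scd1 was 326 FPKM (29.8 to 1266) in mutants and 150 FPKM (39.3 to 637) in controls. Elovl6 stood at 2.88 FPKM (0.274 to 24.1) in mutants and 1.28 FPKM (0.181 to 8.17) in controls. The groups overlapped for each of the 10 genes at each of the 4 times. Of all genes, all mutant libraries were above all control libraries for 1.16% (ZT0), 3.39% (ZT6), 5.67% (ZT12) and 0.843% (ZT18), and below them for 1.45% (ZT0), 8.73% (ZT6), 1.73% (ZT12) and 1.66% (ZT18). The narrow intervals of the steady genes bound their difference more closely, at -0.11 to 0.15 for Me1, -0.07 to 0.16 for Acacb and -0.07 to 0.23 for Srebf1.

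**Figure D3:**
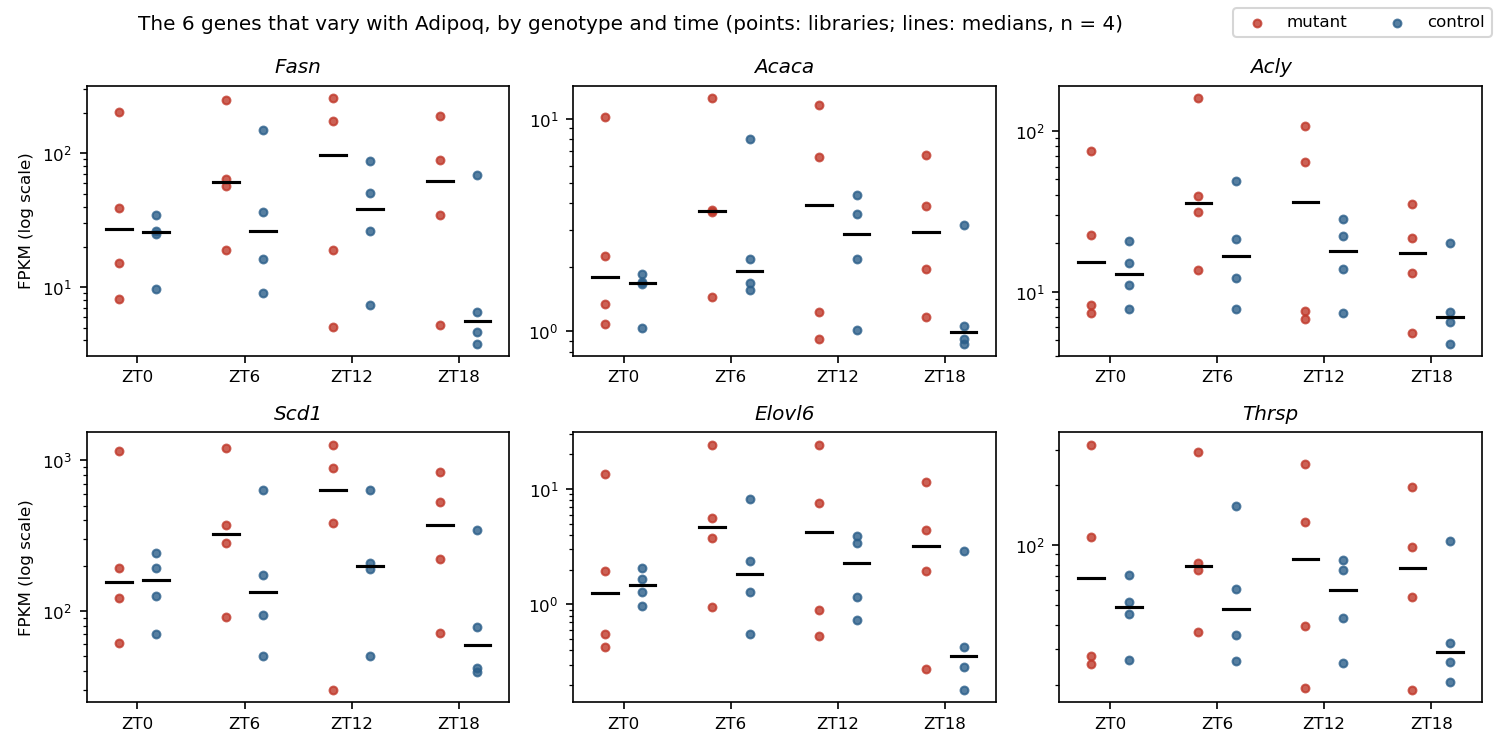
The 6 variable genes (panels; y axis, FPKM, log scale) at each ZT (x axis), with mutant libraries (red, left) beside control libraries (blue, right), 4 points per group and a line at the median. Libraries of 1 group lie far apart, as Fasn in mutants at ZT12 (5.03 to 258 FPKM), and the 2 genotypes overlap at every time.

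Adipoq itself was 0.45 ± 0.30 higher in mutants on the log2 scale, which did not pass the test (adjusted p = 0.770), with a median of 33.8 FPKM (7.11 to 85.8) in mutants and 25.8 FPKM (11.6 to 51.2) in controls. All 16 adipocyte markers and all 8 lymphocyte markers had a higher mean in mutants, with medians of 0.37 and 0.64, and none passed. Of all 11975 genes tested, 6142 had a higher mean in mutants, and the markers vary together. With Adipoq added to the fit, the difference of Scd1 was 0.31 (interval -0.12 to 0.73), of Fasn 0.29 (-0.39 to 0.96), of Elovl6 0.34 (-0.26 to 0.94), of Acly 0.30 (-0.27 to 0.87), of Acaca 0.18 (-0.22 to 0.59) and of Thrsp 0.14 (-0.36 to 0.64). Each was thus smaller than without Adipoq and did not pass (adjusted p = 0.999). With Ucp1 in its place, a choice made after seeing the data, the differences were 0.55 for Scd1, 0.48 for Fasn, 0.42 for Elovl6, 0.40 for Acly, 0.27 for Thrsp and 0.25 for Acaca (adjusted p between 0.904 and 0.925). The unadjusted limma p was then 0.0137 for Scd1, 0.0253 for Elovl6, 0.0374 for Fasn and 0.0468 for Acly. For Acaca and Thrsp it was above 0.05. With the mean of the adipocyte markers, also a later choice, the difference of Scd1 was 0.34 (interval 0.03 to 0.66). Its unadjusted limma p was 0.0325 (adjusted p = 0.992), and the other variable genes had an unadjusted p above 0.05. Me1 changed sign, to -0.000716, with Adipoq in the fit.

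**Figure D4:**
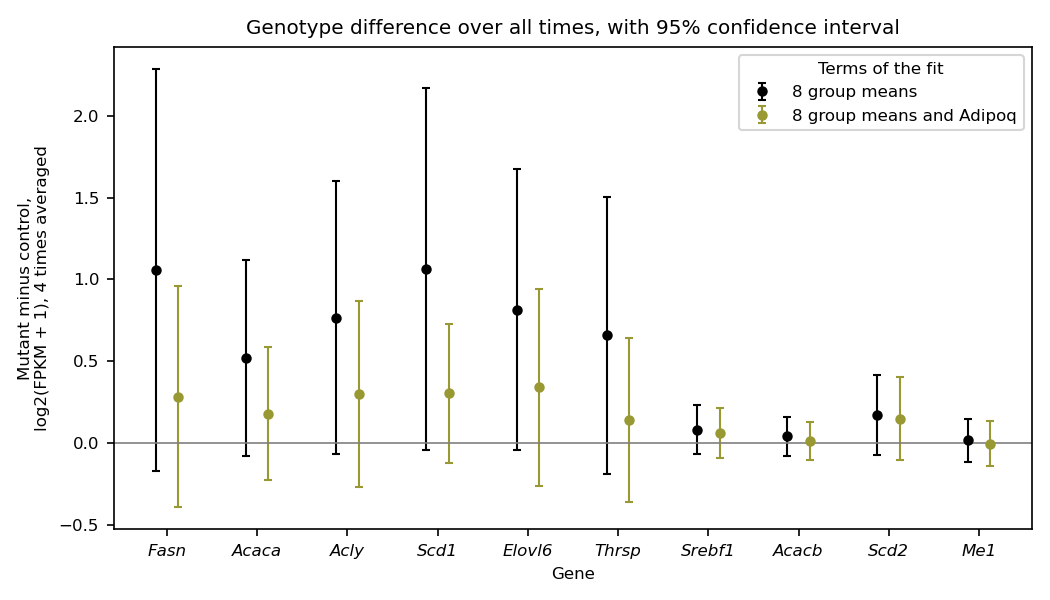
Difference between genotypes over all times (y axis, mutant minus control on log2(FPKM + 1), mean of the 4 times) for each gene (x axis), with 95% confidence intervals, from the fit with the 8 group means (black) and from that with Adipoq added (olive). For Scd1 the estimate was 1.07 in the first fit and 0.31 in the second, and all 20 intervals include 0.

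At the separate times none of the 10 genes passed either. The share of all genes that passed was 0.0167% at ZT0, ZT6 and ZT18 and 0.0251% at ZT12 (0.0167% higher and 0.00835% lower in mutants). The largest estimates were those of Fasn (2.02 ± 1.20) and Scd1 (1.81 ± 1.08) at ZT18 (adjusted p = 0.9995 for both), where control libraries 0, 2 and 3 were all low, at 3.79 to 6.51 FPKM of Fasn, and Adipoq was also 0.81 ± 0.59 higher in mutants. Among the 40 comparisons of a gene at a time, Srebf1 at ZT12 alone had an unadjusted p under 0.05. It was 38.3, 42.5, 31.0 and 29.0 FPKM in mutants at ZT12, against 29.6, 26.4, 22.2 and 25.2 FPKM in controls, a difference of 0.42 ± 0.14 on the log2 scale (limma adjusted p = 0.172). Only the lowest mutant library and the highest control library overlapped. At ZT12 as many as 2085 of all genes had an unadjusted p under 0.05. A genotype difference that depends on time was not found for any of the 10 (0% of all genes passed, 1684 had an unadjusted p under 0.05), and Srebf1 had the lowest p (0.0336, adjusted p = 0.322).

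Scd2 changed with the time of day in both genotypes, and Srebf1 in controls. A 24 h rhythm passed the test for 1 of the 10 genes in mutants, Scd2, where 3.92% of all genes passed, and for 2 of 10 in controls, Srebf1 and Scd2, where 5.55% did. Scd2 was 15.8, 19.1, 29.3 and 25.1 FPKM at ZT0, 22.4, 41.3, 29.8 and 38.2 FPKM at ZT6, 11.01, 31.4, 19.3 and 16.3 FPKM at ZT12 and 9.69, 11.5, 12.4 and 8.47 FPKM at ZT18 in mutants. In controls it was 19.8, 16.6, 21.3 and 19.7 FPKM at ZT0, 35.8, 30.2, 24.2 and 28.1 FPKM at ZT6, 10.3, 13.6, 14.2 and 13.5 FPKM at ZT12 and 10.2, 17.5, 9.27 and 8.72 FPKM at ZT18. In controls every ZT6 library was above every library of the other times, and in mutants ZT6 overlapped with ZT0 and ZT12. The fitted rhythm of Scd2 had an amplitude, from mean to peak, of 0.78 log2 units with a peak at ZT5.4 in mutants (adjusted p = 0.000501) and of 0.72 with a peak at ZT4.5 in controls (adjusted p = 0.00105).

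Srebf1 was high in the light phase in controls. In mutants it was 31.2, 35.2, 53.2 and 32.1 FPKM at ZT0, 29.0, 40.3, 38.6 and 42.2 FPKM at ZT6, 38.3, 42.5, 31.0 and 29.0 FPKM at ZT12 and 24.0006, 28.5, 29.2 and 29.0 FPKM at ZT18. In controls it was 45.9, 37.4, 31.5 and 39.2 FPKM at ZT0, 47.5, 39.6, 39.4 and 44.3 FPKM at ZT6, 29.6, 26.4, 22.2 and 25.2 FPKM at ZT12 and 24.03, 26.1, 23.3 and 26.0 FPKM at ZT18. All control libraries of ZT0 and ZT6 were above all of ZT12 and ZT18, while in mutants all ZT0 libraries were above all ZT18 libraries and ZT6 and ZT12 overlapped with both. The amplitude was 0.21 with a peak at ZT5.2 in mutants (limma adjusted p = 0.237) and 0.47 with a peak at ZT3.6 in controls (adjusted p = 0.000615). The difference between the rhythms did not pass (limma adjusted p = 0.880, with an unadjusted p under 0.05; none of the 11975 genes passed and 640 had an unadjusted p under 0.05), so that the missing call in mutants does not show a difference between genotypes. With array weights the rhythm of Srebf1 passed in mutants as well (amplitude 0.20, adjusted p = 0.0349).

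**Figure D5:**
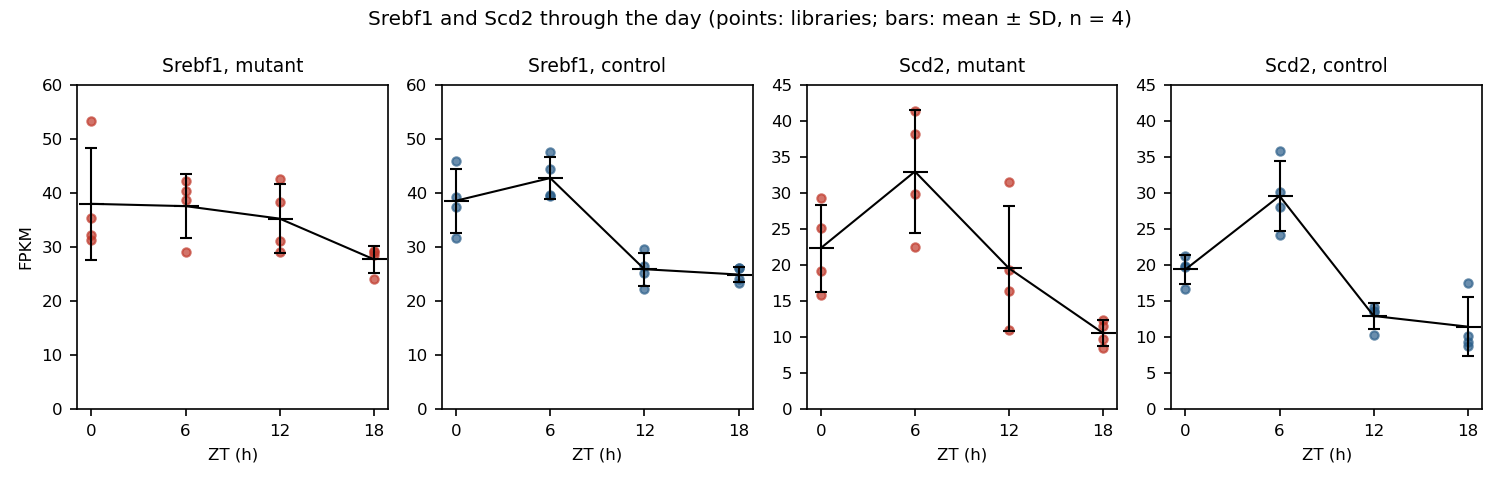
Srebf1 (left pair) and Scd2 (right pair) in mutants (red) and controls (blue) by ZT (x axis, h), in FPKM (y axis, from 0); points are libraries and bars the mean ± SD of 4. Srebf1 averaged 35.2 ± 6.3 FPKM in mutants and 25.9 ± 3.1 FPKM in controls at ZT12, and Scd2 was highest at ZT6 in both genotypes (32.9 ± 8.5 FPKM in mutants and 29.5 ± 4.9 FPKM in controls).

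The other 8 genes showed no rhythm past the test in either genotype. For the 6 variable genes the fitted amplitudes were not small, from 0.21 (Thrsp) to 0.70 (Acly) in mutants and from 0.29 (Thrsp) to 0.80 (Fasn) in controls, but the adjusted p-values lay between 0.636 and 0.961 in mutants and between 0.696 and 0.922 in controls. Rhythms of this size were thus not detectable against the spread between libraries. The amplitudes of Acacb (0.09 and 0.06) and Me1 (0.12 and 0.08, mutants first) were small in themselves. A test of any difference among the 4 times gave the same calls, Scd2 in mutants (adjusted p = 0.00144; 3.89% of all genes) and Srebf1 and Scd2 in controls (adjusted p = 0.0015 and 0.00222; 5.70% of all genes). The samples were sequenced in 4 pools of 8, and which sample was in which pool is not given in the sources used here; if pools followed times, the pool and the time cannot be told apart.

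Some other genes of these pathways followed the day. Mid1ip1, a relative of Thrsp that binds acetyl-CoA carboxylase, was rhythmic in both genotypes with a peak at ZT21.3, an amplitude of 0.59 in mutants (adjusted p = 0.00383) and 0.69 in controls (adjusted p = 0.000732). In mutants 1 of 21 regulators (Mid1ip1), 3 of 21 sterol genes (the sterol enzymes Sqle and Msmo1 among them), 1 of 13 triglyceride genes (Gpam) and none of 25 other fatty acid genes passed. Among the controls 2 of 21 regulators (Mid1ip1 and Thra), 1 of 21 sterol genes, 1 of 13 triglyceride genes (Lpin3) and none of 25 other fatty acid genes did. The shares by list were 0% to 14.3% in mutants and 0% to 9.52% in controls. They lay on both sides of the 3.92% (mutants) and 5.55% (controls) of all genes that passed. In these lists no gene passed the test of a difference in rhythm.

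No gene of the other lists differed between genotypes over all times at an adjusted p under 0.05. Of 25 other fatty acid genes 19 had a higher mean in mutants and 7 had an unadjusted limma p under 0.05, with a median difference of 0.14. Of all 11975 genes tested, 6142 had a higher mean in mutants and 776 had an unadjusted limma p under 0.05. Since 11 of the 25 also had a slope on Adipoq past the test, these genes are not independent of each other. Acss2, an acetyl-CoA synthetase, averaged 21.9 ± 8.0 FPKM in mutants and 16.5 ± 3.6 FPKM in controls (SD, n = 16 each; adjusted p = 0.756). Pgd averaged 17.9 ± 9.1 FPKM in mutants and 12.2 ± 3.4 FPKM in controls, and among the regulators Insig1 averaged 11.8 ± 5.4 FPKM in mutants and 8.27 ± 2.64 FPKM in controls (adjusted p = 0.756 for both). These 3 had a positive difference of 0.35 to 0.43, and Pgd and Insig1 also had a slope on Adipoq past the test.

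Some entries share sequence or position with other genes. Scd1 and Scd2 lie near each other on chromosome 19, and 48 of the 4791 windows of 100 bases in the Scd1 transcripts (1%) also occur in those of Scd2, so that few reads of this length fit both. Acaca and Acacb share none of 10236 such windows. The Srebf1 entry spans chr11:60105012-60220604 (mm10), a stretch that also holds Rai1 on the other strand; the library kit keeps the strand, but whether the counting used it is not given in the sources used here. Rai1 lay between 3.11 and 5.21 FPKM in mutants and between 3.36 and 5.64 FPKM in controls, well under Srebf1. The entries of Acaca and Acacb start within the genes as GENCODE M21 gives them, at 84195437 on chromosome 11 and 114165517 on chromosome 5, so that a first exon upstream is not part of the value.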

How the data were processed

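The values are FPKM, deposited by the authors as 1 value per gene and library; mm10 is the only genome named, per the submitters' processing notes. How FPKM were computed is not given in the sources used here. All 32 columns were matched to the 8 groups by genotype and time; the columns call the genotypes WT and TG, and their library numbers identify no mouse. FPKM carry no counts, so depth is unknown; steps among low values gave relative depths from 0.828 to 1.36 in mutants and 0.815 to 1.30 in controls, but with 68.8% of low values near a multiple (tolerance 0.1) no counts were recovered.

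Genes with at least 1 FPKM in at least 4 libraries were tested on log2(FPKM + 1), which understates changes of low genes, with limma 3.58.1 (R 4.3.3; 1 mean per group, trended prior, 24 residual degrees of freedom) and Benjamini-Hochberg adjustment over all genes; calls are at an adjusted p under 0.05. P-values are 2-sided. Rhythms were F tests of 24 h cosine and sine contrasts. The slope used log2 Adipoq beside the group means. The fits were tested on simulated data. Correlations had permutation tests in Python 3.11.15. The 10 genes and the gene lists were chosen with earlier results of these data known. The genes named are the 10, Adipoq, the 3 most like each, and from each list those past the test (at most 5) or else the 2 with the lowest p; list genes at single times are not described. Some genes that this rule names are not reported here. Sirt1, Rai1, Lep and the single values of Ucp1 were added after values were seen. P-values from limma measure the spread between mice of a group. Those printed for correlations come from shuffling over all 32 libraries, so they also take in differences between groups. Sequences are from RefSeq (8 of 10 genes matched).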

Additional observations from a re-analysis of the deposited data

Results flagged for a closer look

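In 88 groups of 4 libraries (10 genes and Adipoq in 8 groups), the highest or lowest library was compared with the other 3 by the gap to its neighbour as a share of the range, and 13 groups passed Dixon's 95% critical value. For values with a normal spread, chance alone gives about 1 group in 20. The check was made on FPKM, where a high library stands out more than on the log2 scale of the other tests. The chance rate for these values is thus not known and may be higher. Since the genes vary together, the 13 are also not independent.

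Of these, 6 came from control ZT18 library 1. It had 68.8 FPKM of Fasn (other libraries 3.79 to 6.51), 3.17 of Acaca (0.872 to 1.06), 345 of Scd1 (39.3 to 78.0), 17.5 of Scd2 (8.72 to 10.2), 2.89 of Elovl6 (0.181 to 0.425) and 105 of Thrsp (20.7 to 32.3). Its Adipoq was 43.3 FPKM, the highest of its group, and its Ucp1 23.3 FPKM.

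Another 4 came from mutant ZT0 library 1, with 203 FPKM of Fasn (other libraries 8.18 to 39.0), 10.2 of Acaca (1.08 to 2.25), 1152 of Scd1 (61.3 to 192) and 13.5 of Elovl6 (0.431 to 1.97). Its Adipoq was 81.8 FPKM and its Ucp1 65.4 FPKM.

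Control ZT6 library 3 had 7.99 FPKM of Acaca (other libraries 1.55 to 2.17). Among the steady genes, mutant ZT18 library 0 had 24.0006 FPKM of Srebf1 (28.5 to 29.2 in the others) and control ZT18 library 0 had 81.1 FPKM of Me1 (66.0 to 68.5 in the others). The part of fat tissue in these values was not tested.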

How the results depend on the processing

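Over pseudocount, filters, quantile normalisation, array weights, zeros as missing, marker covariates and each library left out, the count of the 10 genes called moved in 4 cases. With array weights 2 genes, not 1, were rhythmic in mutants (Srebf1 added) and 7, not 6, had a slope on Adipoq (Acacb added). Quantile normalisation gave 7 correlations with Adipoq, not 6 (Acacb added, 0.44), and a mean of at least 5 FPKM left 4 slopes, since Acaca and Elovl6 were not tested. Counts over all genes moved more, from 287 to 752 for rhythms in mutants (470 as reported), 390 to 2233 in controls (665), 266 to 2143 for the slope (892), 292 to 982 and 404 to 2855 for any difference among times in mutants (466) and controls (682), 1 to 4 (3) for genotype over all times, 0 to 3 (2) at ZT0 and ZT18, 0 to 232 (2) at ZT6, 0 to 446 (3) at ZT12 and 0 to 93 (0) by time. No paired analysis was possible because the labels give each mouse its own number and the columns' library numbers identify no mouse.

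Signs turned in 23 of 1206 values, none of them called. With Adipoq in the fit, the genotype difference became -0.000716 for Me1 over all times, -0.48 for Fasn, -0.13 for Acaca, -0.029 for Acly, -0.21 for Scd1 and -0.26 for Thrsp at ZT12, and -0.024 for Acly and -0.088 for Thrsp at ZT18. With the adipocyte markers it became -0.0017 for Me1 over all times, -0.22 for Fasn, -0.017 for Acaca and -0.074 for Thrsp at ZT12, and -0.0026 for Acacb, -0.11 for Acly and -0.17 for Thrsp at ZT18. Quantile normalisation gave -0.0090 for Me1 at ZT0 and 0.093 for Acacb at ZT6, and array weights -0.010 for Acacb at ZT0, 0.012 for Acacb at ZT6, -0.00090 for Acacb and 0.0047 for Me1 at ZT18. The correlation with Adipoq was -0.047 for Scd2 in mutants alone and -0.23 for Me1 in controls alone. The cause was not tested.

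Leaving out 1 library turned 29 of 3840 values. At ZT0 the ranges were -0.34 to 1.16 (Fasn), -0.017 to 0.79 (Acaca), -0.18 to 0.88 (Acly), -0.34 to 1.07 (Scd1), -0.39 to 0.72 (Elovl6) and -0.11 to 1.10 (Thrsp), the low end without mutant library 1. At ZT12 they were -0.21 to 1.59 (Fasn), -0.15 to 0.76 (Acaca), -0.058 to 1.21 (Acly), -0.039 to 1.30 (Elovl6) and -0.15 to 1.08 (Thrsp), the low end without mutant library 3. The rest were -0.21 to 0.043 (Srebf1), -0.026 to 0.14 (Acacb) and -0.037 to 0.15 (Me1) at ZT0, -0.078 to 0.045 (Acacb) at ZT6, -0.014 to 0.12 (Acacb), -0.093 to 0.0048 (Me1) and -0.17 to 0.14 (Scd2) at ZT18, and -0.012 to 0.047 (Me1) over all times.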

Other observations

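The ratio of each gene to Adipoq in the same library was also taken. Fasn per Adipoq had a median of 1.57 (0.229 to 4.85) in the 16 mutant libraries and 0.775 (0.260 to 2.89) in the 16 control libraries, and Scd1 per Adipoq 8.71 (3.11 to 23.8) in mutants and 4.42 (2.55 to 13.8) in controls. Elovl6 per Adipoq was 0.0938 (0.0116 to 0.450) in mutants and 0.0550 (0.00723 to 0.159) in controls. Acly was closer, at 0.632 (0.0974 to 2.56) in mutants and 0.557 (0.256 to 0.954) in controls. Acaca (0.0966 in mutants and 0.0756 in controls) and Thrsp (2.32 in mutants and 1.79 in controls) also had a higher median ratio in mutants. The steady genes had a lower one, at 1.79 in mutants and 2.64 in controls for Me1, 1.41 in mutants and 1.81 in controls for Acacb, 0.978 in mutants and 1.10 in controls for Srebf1, and 0.567 in mutants and 0.585 in controls for Scd2. The ranges overlapped for all 10 genes, and no test was made of the ratios. A ratio is free of the Adipoq level only for a gene with a slope near 1 on Adipoq. The slopes were 1.73 for Fasn, 1.70 for Scd1 and between 0.04 and 0.06 for the steady genes. They were nearer to 1 for Thrsp (1.16), Elovl6 (1.06), Acly (1.05) and Acaca (0.76). The median of Adipoq was 33.8 FPKM in mutants and 25.8 FPKM in controls. For Fasn, Scd1 and the steady genes the ratios thus also carry the Adipoq level. Whether the ratios of any of the 10 genes differ between genotypes apart from Adipoq was not tested.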
